A study of Rattus norvegicus with 21 samples.

Results

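Zinc transporters and metallothioneins were followed in the dentate gyrus, the hippocampal subfield of granule neurons, in 18 male Wistar rats. The set held 10 genes: Slc30a1, Slc30a3, Slc30a4, Slc30a5, Slc30a9 and Slc30a10, Slc39a10 and Slc39a14, and Mt1 and Mt3. They are 10 of 14506 genes named by a probe set with 1 gene symbol, and all 10 lay above the low-signal filter that left 10804 genes for testing. Slc30a3 and Mt1 were chosen by their measured values, since they stood out in these same arrays, so their differences between groups are described without a test. The other 8 members were listed for their function.

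The 6 groups held 3 wild-type rats each, aged 2 months. Control rats were untreated, and the stress group lived under unpredictable chronic mild stress for 6 weeks. The other groups had the same stress and, in its last 2 weeks, daily intraperitoneal fluoxetine, imipramine or tianeptine at 10 mg/kg, or agomelatine at 40 mg/kg. Vehicles differed between drugs (water, saline or hydroxyethylcellulose), and the labels do not say whether control and stressed rats were injected, so drug, vehicle and injection cannot be told apart. Each control rat was measured on a first and a repeat array, which were averaged. Expression is given as log2 signal of Affymetrix Gene ST arrays, on which a step of 1 is a doubling. Probe sets differ in affinity, so levels are compared between animals and not between genes. Of the granule neuron markers, Prox1, Calb1, C1ql2, C1ql3, Slc17a7 and Synpr were all measured, with mean log2 signals from 10.75 to 13.05.

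Neurons keep most of their zinc bound to protein or packed into vesicles. Transporters of the Slc30 (ZnT) family move zinc out of the cytosol, into vesicles and organelles or out of the cell, and those of the Slc39 (ZIP) family move it into the cytosol. Metallothioneins are small cysteine-rich proteins that bind zinc and release it. Granule neurons send their mossy fibre axons to CA3, and these terminals hold the densest vesicular zinc of the brain, loaded by Slc30a3 (ZnT3). When cytosolic zinc rises, the transcription factor Mtf1 binds metal response elements in the promoters of metallothionein genes and Slc30a1.

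The promoters below show where those genes carry the element, because metallothioneins are the members in which a shared element can be read from sequence. Each line is the 250 bases before the gene's start in RefSeq (build GRCr8), 5′ to 3′ on the gene's strand. Capitals mark every match to the core of the metal response element, searched as TGCACNC and TGCGCNC on both strands. The windows are chr19:10832976-10833225 (minus strand) for Mt1, chr19:10838709-10838958 (minus strand) for its neighbour Mt2A, chr19:10856081-10856330 (minus strand) for Mt3 and chr13:106021769-106022018 (plus strand) for Slc30a1.
Mt1: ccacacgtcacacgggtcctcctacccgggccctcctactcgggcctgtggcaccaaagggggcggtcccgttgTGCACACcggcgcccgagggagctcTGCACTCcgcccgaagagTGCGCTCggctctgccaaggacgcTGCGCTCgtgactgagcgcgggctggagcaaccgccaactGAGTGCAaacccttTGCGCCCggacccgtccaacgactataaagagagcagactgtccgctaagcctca
Mt2A: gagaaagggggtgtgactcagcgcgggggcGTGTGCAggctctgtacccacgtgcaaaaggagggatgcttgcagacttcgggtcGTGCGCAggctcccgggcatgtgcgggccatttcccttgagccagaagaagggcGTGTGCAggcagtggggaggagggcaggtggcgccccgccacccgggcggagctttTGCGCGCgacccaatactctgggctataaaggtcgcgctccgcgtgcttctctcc
Mt3: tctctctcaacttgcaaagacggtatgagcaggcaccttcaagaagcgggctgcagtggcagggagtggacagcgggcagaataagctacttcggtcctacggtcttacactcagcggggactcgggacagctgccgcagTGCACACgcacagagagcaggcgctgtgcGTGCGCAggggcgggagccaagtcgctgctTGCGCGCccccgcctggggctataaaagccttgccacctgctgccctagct
Slc30a1: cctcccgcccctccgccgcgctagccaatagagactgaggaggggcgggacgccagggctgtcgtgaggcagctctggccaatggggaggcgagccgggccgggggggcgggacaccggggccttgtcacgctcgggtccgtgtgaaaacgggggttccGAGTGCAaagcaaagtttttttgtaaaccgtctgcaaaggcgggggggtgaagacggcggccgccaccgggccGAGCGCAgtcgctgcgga
The Mt1 window held 6 cores, that of Mt2A 4, that of Mt3 3 and that of Slc30a1 2. Of 33469 RefSeq promoter windows of this length, 20.6% held at least 1 core, 4.9% at least 2 and 0.266% at least 4. Promoters were matched by symbol for 8 of the 10 members, all but Slc30a10 and Slc39a14. Among the other matched members, Slc30a4 held 2 cores and Slc30a5 held 2 that overlapped, while the windows of Slc30a3, Slc30a9 and Slc39a10 held 0. The windows of Slc30a3, Slc30a5, Slc30a9 and Slc39a10 did not adjoin the RefSeq gene boundary. Their counts therefore do not describe the bases just before the gene's start. A match describes the letters and does not show binding.

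Slc30a3, the vesicular zinc transporter of mossy fibre terminals, was at 11.35, 11.33 and 11.22 in the 3 control rats and at 11.24, 11.32 and 11.21 in the 3 stressed rats. It was at 11.45, 11.20 and 11.42 with fluoxetine, 11.17, 11.28 and 11.18 with imipramine, and 11.30, 11.37 and 11.26 with tianeptine. In the agomelatine rats it was at 10.58, 10.66 and 10.72. All 3 agomelatine rats lay below every one of the other 15 rats, whose ranges overlapped from group to group. The agomelatine mean was 10.65 ± 0.07 (SD, n = 3) against 11.26 ± 0.05 (SD, n = 3) with stress alone. This difference of -0.61 ± 0.07 (SE) in log2 signal equals -34.3% in signal, and the difference from control, -0.65, equals -36.3%. With the granule neuron marker score described further on as a covariate, these differences were -0.39 and -0.34.

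The remaining Slc30a3 means sat close together. From highest to lowest they were fluoxetine 11.36 ± 0.14, tianeptine 11.31 ± 0.05, control 11.30 ± 0.07, stress 11.26 ± 0.05 and imipramine 11.21 ± 0.06 (SD, n = 3 each), and neighbours in this order differed by no more than their spread. Stress alone differed from control by -0.04 in log2 signal. The span of the 6 group means was 0.71, larger than that of 99.1% of tested genes, and it came from the agomelatine group. Slc30a3 was chosen because it stood out in these values, so this rank only describes it and gives no support. In bulk tissue, fewer granule neurons and less Slc30a3 RNA per granule neuron cannot be told apart.

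**Figure D1:**
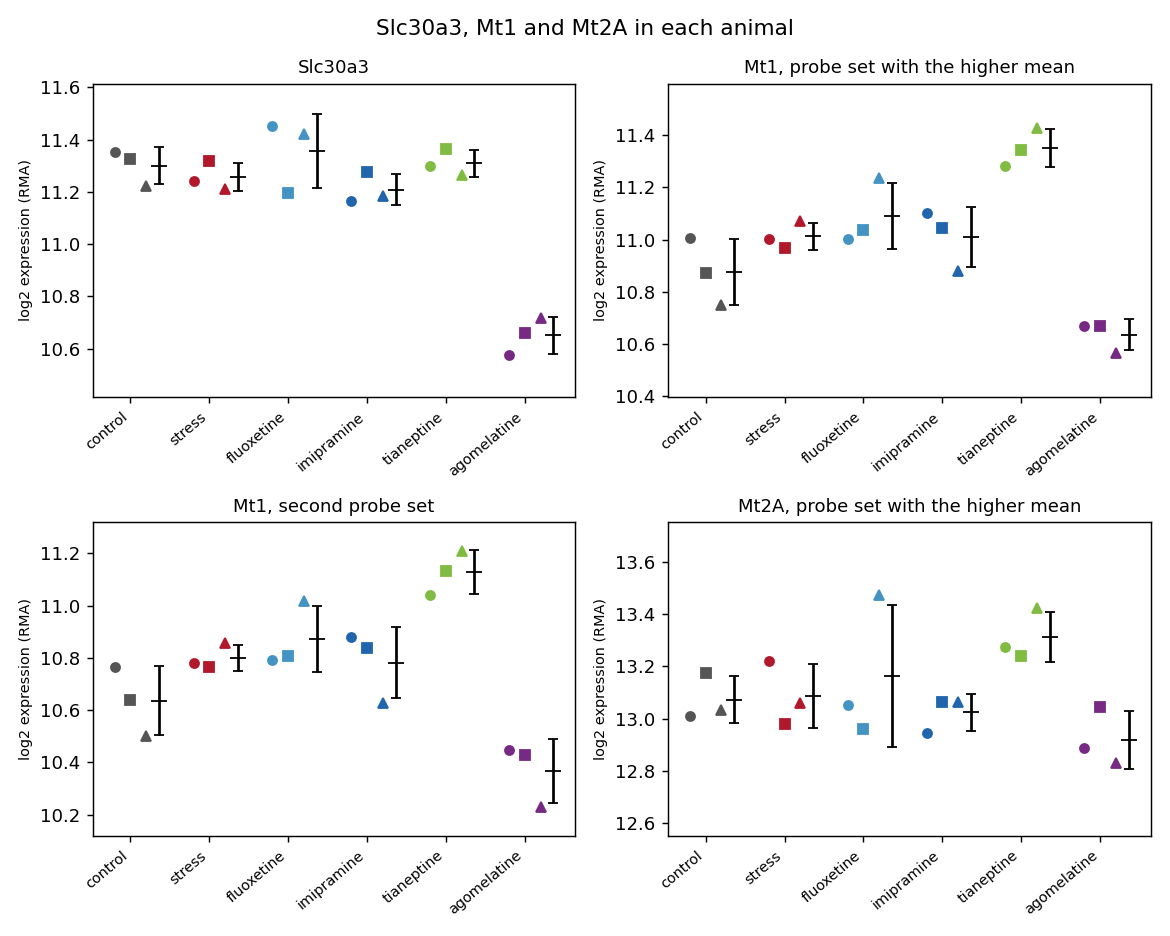
Log2 signal in each of the 18 rats by group for Slc30a3 (top left), Mt1 (top right), the second Mt1 probe set (bottom left) and Mt2A (bottom right). Circles, squares and triangles are replicates 1, 2 and 3, and black marks give the mean ± SD. Slc30a3 is low only in the 3 agomelatine rats (10.58 to 10.72). In the top right panel, Mt1 is lowest with agomelatine (10.57 to 10.67) and highest with tianeptine (11.28 to 11.43).

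Mt1, a zinc-binding metallothionein made mainly by glia, took opposite positions in the tianeptine and agomelatine groups. It was at 11.01, 10.87 and 10.75 in control rats, 11.00, 10.97 and 11.07 in stressed rats, 11.00, 11.04 and 11.24 with fluoxetine, and 11.10, 11.05 and 10.88 with imipramine. With tianeptine it was at 11.28, 11.34 and 11.43, and with agomelatine at 10.67, 10.67 and 10.57. Every tianeptine rat lay above all 15 others and every agomelatine rat below all 15 others, while the other 4 groups overlapped.

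Against stress alone, Mt1 was higher by 0.34 ± 0.08 (SE) in log2 signal with tianeptine, which is 26.3% more, and lower with agomelatine, with a difference of -0.38 ± 0.08 (SE), which equals -23.1%. Both differences use the same 3 stressed rats. The differences from control equal 38.8% with tianeptine and -15.4% with agomelatine. The group means ran from tianeptine 11.35 ± 0.07 through fluoxetine 11.09 ± 0.13, stress 11.01 ± 0.05, imipramine 11.01 ± 0.12 and control 10.88 ± 0.13 down to agomelatine 10.64 ± 0.06 (SD, n = 3 each). Fluoxetine, stress and imipramine did not differ beyond their spread, and the imipramine and control rats overlapped, with means 0.13 apart. The span of group means, 0.71, was larger than that of 99.2% of tested genes, a rank that likewise only describes a gene chosen for its values.

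The array holds a second Mt1 probe set, and its values followed the first with r = 0.995 over the 18 rats. It gave 0.33 for tianeptine and -0.43 for agomelatine against stress. Mt2A, the neighbouring and closely similar metallothionein, is no member but helps to place Mt1. Its tianeptine rats ranged from 13.24 to 13.42, above the stressed rats at 12.98 to 13.22, and the difference of 0.23 ± 0.10 (SE) was not called (limma, adjusted p = 0.943). With agomelatine it differed from stress by -0.17 ± 0.10 (SE; limma, adjusted p = 0.297). Metallothionein transcripts are alike enough that probe sets may read more than 1 of them, so Mt1 and Mt2A are not independent readings.

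Mt3, the metallothionein of neurons and astrocytes also called growth inhibitory factor, had its lowest mean with imipramine. The imipramine rats were at 10.61, 10.49 and 10.52, against 10.70, 10.85 and 10.91 with stress and 10.92, 10.83 and 10.65 in controls. The imipramine rats did not overlap with either of those groups. The difference from stress was -0.28 ± 0.09 (SE), with an unadjusted p of 0.00425, and it did not pass after adjustment over all genes (limma, adjusted p = 0.459). Against control it was -0.26 (limma, adjusted p = 0.430). In the tianeptine and agomelatine groups Mt3 had means of 10.77 ± 0.15 and 10.79 ± 0.06 (SD, n = 3 each). Both means lay inside the control range, unlike those of Mt1. Tianeptine replicate 2, at 10.59, lay below every control and overlapped with the imipramine rats.

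Slc30a1 (ZnT1), which exports zinc across the plasma membrane and like Mt1 is an Mtf1 target, had its highest mean with tianeptine. The tianeptine rats were at 8.77, 8.58 and 8.68, the stressed rats at 8.43, 8.36 and 8.64 and the controls at 8.47, 8.43 and 8.55. Tianeptine overlapped with stress and, with the 2 arrays of each control rat averaged, not with control. On the first control arrays alone, at 8.518, 8.541 and 8.695, it overlapped with control as well. Its differences of 0.20 ± 0.08 (SE) from stress (limma, adjusted p = 0.943) and 0.19 ± 0.08 (SE) from control (limma, adjusted p = 0.9997) were not called. With agomelatine Slc30a1 differed from stress by -0.02 in the main fit. The 95% interval there, from -0.19 to 0.15, does not reach the sizes seen for Slc30a3 and Mt1.

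Among the transporters that load vesicles and organelles, Slc30a4 (ZnT4), of endosomes and secretory vesicles, was lowest in controls. Controls were at 10.79, 10.79 and 10.89, and every rat of the fluoxetine, imipramine, tianeptine and agomelatine groups was above them, though the lowest of these, at 10.892, barely passed the highest control at 10.891. The largest of these differences was 0.15 ± 0.06 (SE) with imipramine (limma, adjusted p = 0.489). The 4 differences share the 3 control rats, and stressed rats, at 10.94, 10.78 and 10.93, overlapped with controls. Slc30a5 (ZnT5), which supplies zinc to enzymes of the early secretory pathway, had group means from 9.47 to 9.58, and 10.9% of tested genes had a span of group means as small.

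Slc30a9, linked to zinc export from mitochondria, was highest with imipramine, at 10.96, 10.96 and 11.01. Stressed rats were at 10.91, 10.85 and 10.84 and controls at 10.78, 10.83 and 10.86, both without overlap with imipramine. The differences were 0.11 ± 0.06 (SE; limma, adjusted p = 0.518) and 0.15 ± 0.06 (SE; limma, adjusted p = 0.494). Slc30a10, which exports manganese more than zinc, was lowest with fluoxetine, from 9.46 to 9.61, below all controls at 9.62 to 9.72, a difference of -0.15 ± 0.06 (SE; limma, adjusted p = 0.951).

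Neither importer was called in any comparison with all rats. Slc39a10 (ZIP10), of the plasma membrane, was at 10.58 to 10.62 in controls, below all fluoxetine rats (10.64 to 10.65) and all imipramine rats (10.63 to 10.74), with differences of 0.05 ± 0.07 (SE; limma, adjusted p = 0.987) and 0.08 ± 0.07 (SE; limma, adjusted p = 0.838). It had its lowest mean with tianeptine, 10.54 ± 0.07, and its highest with agomelatine, 10.72 ± 0.15 (SD, n = 3 each), with a difference of -0.13 ± 0.07 (SE) between tianeptine and stress (limma, adjusted p = 0.943). Slc39a14 (ZIP14), which carries zinc, iron and manganese, had the narrowest span of group means of the members, 0.08, and all 6 of its groups overlapped.

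**Figure D2:**
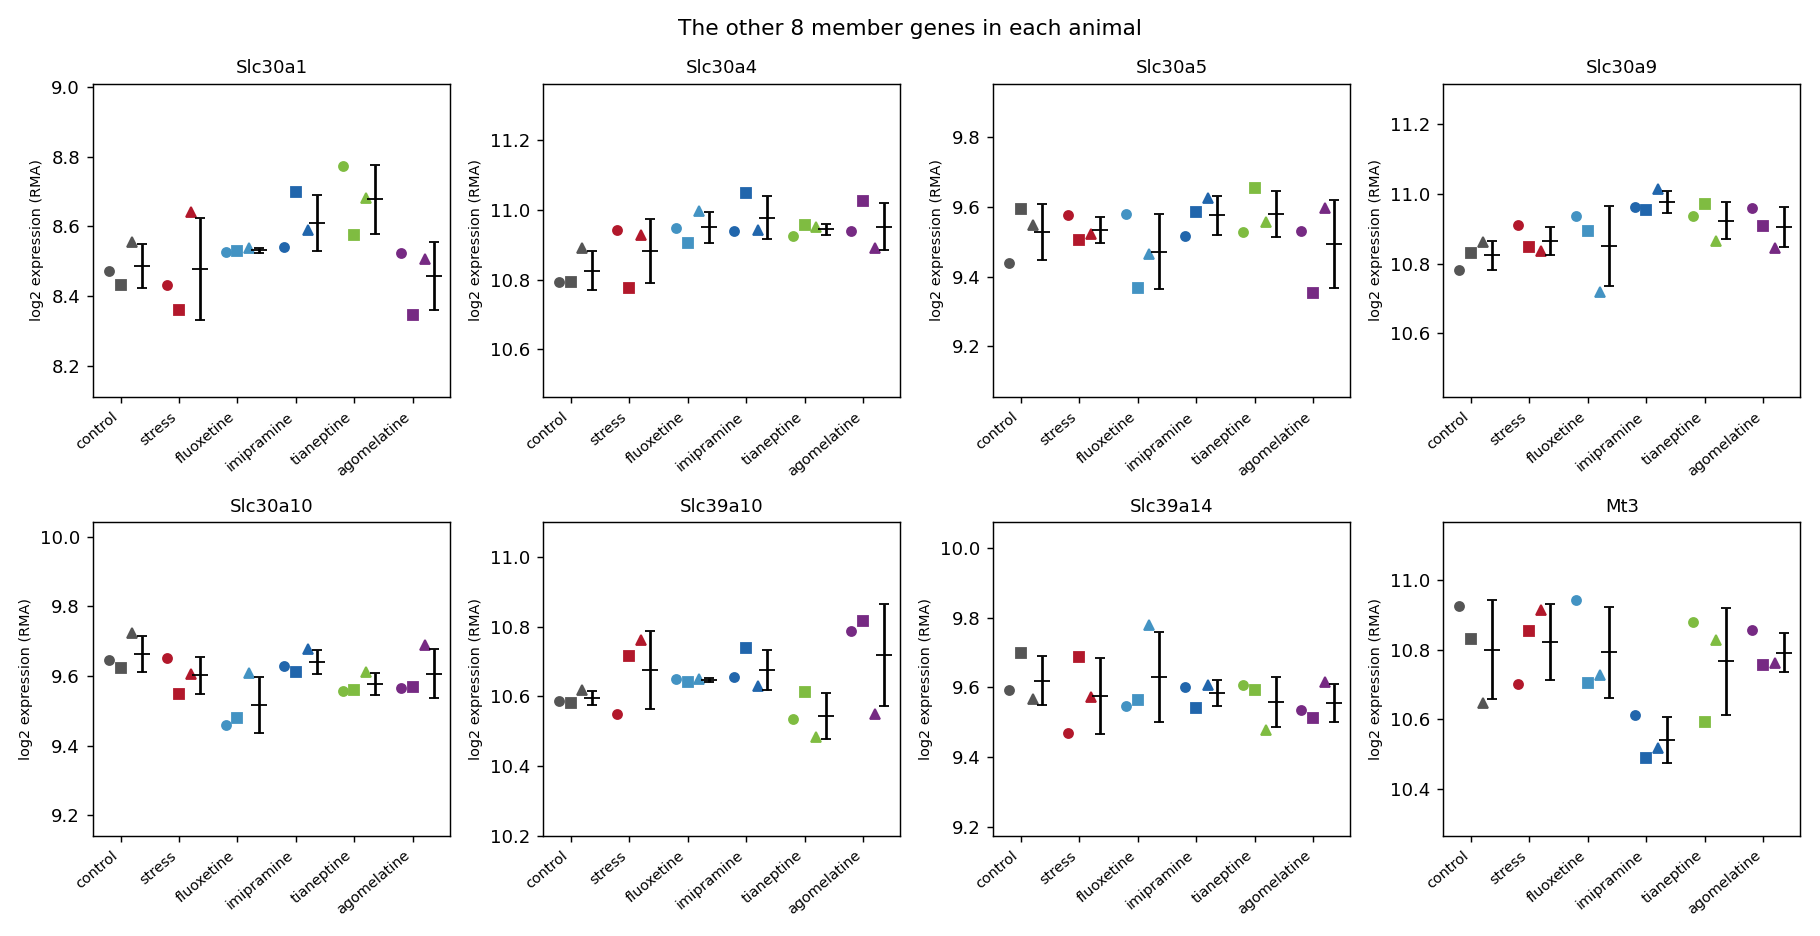
Log2 signal of the other 8 members in each of the 18 rats, 1 panel a gene, with groups on the x axis; circles, squares and triangles are replicates 1, 2 and 3, and black marks give the mean ± SD. Group means spread by at most 0.28 (Mt3), against 0.71 for Slc30a3 and Mt1, which were chosen for their values.

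Over all tested genes, 0 of 10804 (0%) were called at an adjusted p under 0.05 for stress against control, and for fluoxetine, imipramine and tianeptine against stress, in limma's moderated two-sided test. Unadjusted p-values under 0.05 were found for 583, 541, 1081 and 547 genes in these comparisons. With agomelatine against stress 10.8% of genes were called, and against control 9.59%. Fluoxetine and tianeptine against control called 0%, and imipramine against control 0.0185%, which is 2 genes.

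None of the 8 members listed for their function was called in any of the 9 comparisons. Of these 8, unadjusted p-values under 0.05 were found for 1 gene with imipramine (Mt3), 1 with tianeptine (Slc30a1) and 0 with stress, fluoxetine and agomelatine in the main comparisons. Against control, the count was 2 with fluoxetine, 3 with imipramine, 1 with tianeptine and 1 with agomelatine. Over all 10804 tested genes, the counts against control were 528, 894, 436 and 2746 in the same order, and 2922 with agomelatine against stress. Without agomelatine replicate 3, 1 of the 8 was called with agomelatine against control: Slc39a10, with a difference of 0.21, against 0.12 with all 3 rats. Calls over all genes were not counted without that rat. The widest 95% interval of a difference, not adjusted over genes, reached 0.18 in log2 signal to either side. A call after adjustment over all genes asks for more, so changes larger than that could be missed with 3 rats a group. The Mt3 difference of -0.28 with imipramine against stress, for instance, was not called. With agomelatine against stress, the comparison with the most calls over all genes, the differences of these 8 ran from -0.04 to 0.07 in the main fit. They were less narrow in other settings. With the granule neuron marker score described further on as a covariate, Slc39a10 differed by -0.21 and Slc30a5 by 0.13. Slc30a1 reached -0.27 at its lowest over the alternative settings. None of these differences was called.

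Over all 10 members, groups did not overlap for 0 genes with stress against control (13.1% of tested genes) and 0 with fluoxetine against stress (10.8% of tested genes). The same count was 2 with imipramine (19.7% of tested genes), 1 with tianeptine (11.2%) and 2 with agomelatine (25.2%), each against stress. The 2 with agomelatine, and the 1 with tianeptine, are the genes chosen for their values. Against control, the count over the 10 members was 3 with fluoxetine, 4 with imipramine, 5 with tianeptine and 3 with agomelatine. Over the 8 members listed for their function it was 3, 4, 4 and 1 in the same order. Over all 10804 tested genes it was 1243, 2082, 1183 and 2778, so separation from 3 control rats was common among all genes. The median difference of the members from stress was 0.05 with tianeptine and -0.02 with agomelatine, beside -0.02 and -0.03 over all tested genes.

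**Figure D3:**
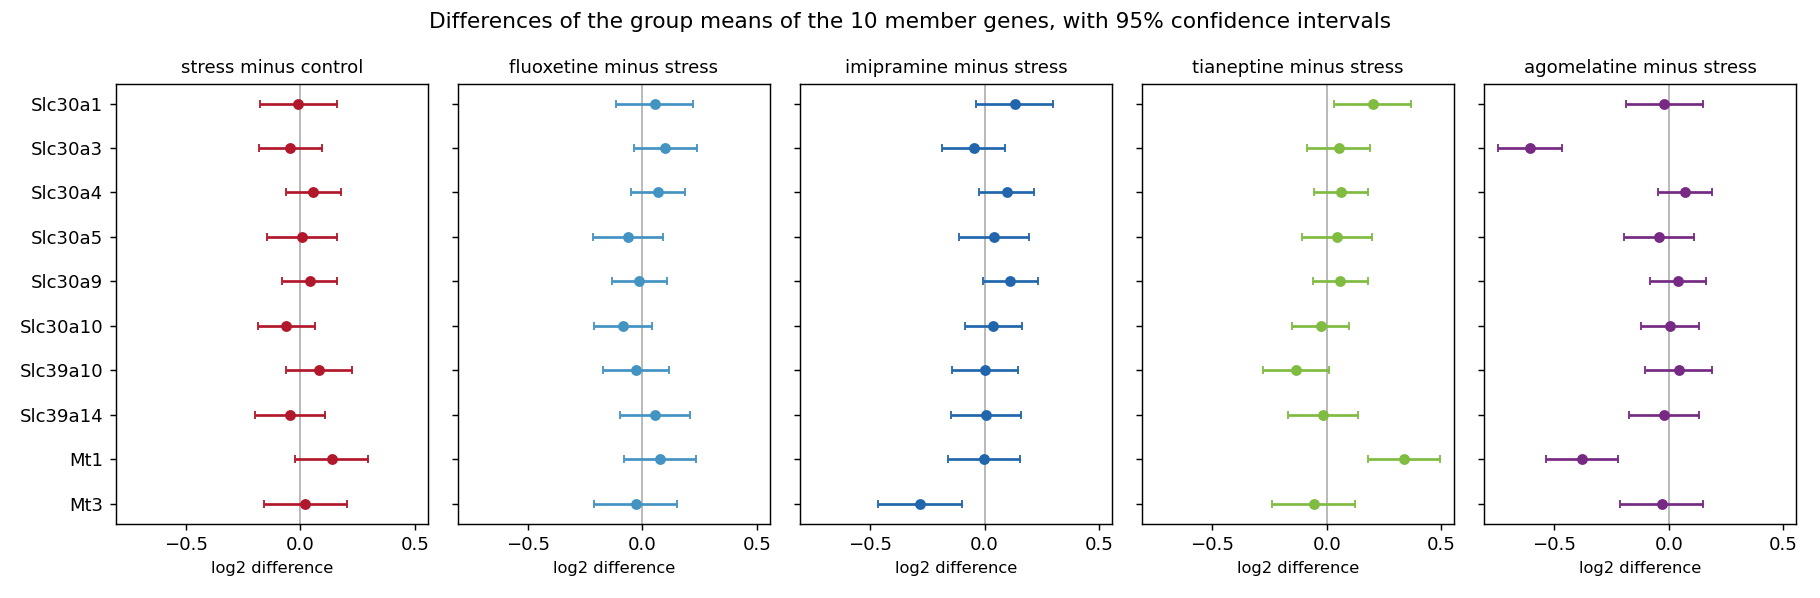
Log2 differences of the 10 members in the 5 main comparisons, with 95% intervals; the x axis is the difference in log2 signal and each panel is 1 comparison. Slc30a3 and Mt1 with agomelatine (-0.61 and -0.38) and Mt1 with tianeptine (0.34) lie farthest from 0, and the other members lie between -0.28 and 0.20.

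Zinc genes outside the members were read from a list of 32, of which 24 were tested. With agomelatine against stress, 3 of the 24 (12.5%) were called, all lower, beside 10.8% of all tested genes called in either direction and 6.58% called lower. Below 0 lay 19 of the 24 (79.2%), beside 56.6% of all tested genes. Nothing particular to zinc genes is read from these counts. Slc39a11 (ZIP11), an intracellular zinc importer, fell by 0.38 ± 0.08 (SE; limma, adjusted p = 0.00814), with stressed rats from 9.31 to 9.42 and agomelatine rats from 8.91 to 9.10. Slc30a6 (ZnT6), the partner of Slc30a5 in the secretory pathway, fell by 0.36 ± 0.09 (SE; limma, adjusted p = 0.0179), whereas Slc30a5 itself differed by -0.04. Slc39a7 (ZIP7), which releases zinc from the endoplasmic reticulum, fell by 0.27 ± 0.08 (SE; limma, adjusted p = 0.0357). The median of the 24 was -0.13, beside -0.03 over all genes.

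All 3 calls were lost with only the agomelatine and stress groups in the fit, and with the oligodendrocyte or the granule neuron score as a covariate. Without stress replicate 1 or stress replicate 3, 1 of the 24 was called, and with stress 1 and agomelatine 1 both left out, the rats with high choroid plexus markers, 1 was called. Against control, 3 of the 24 (12.5%) fell with agomelatine, beside 9.59% of all tested genes called in either direction and 4.31% called lower: Slc30a6 by 0.37 (limma, adjusted p = 0.0173), Slc39a11 by 0.31 (limma, adjusted p = 0.0249) and Slc39a8 (ZIP8), which imports zinc and manganese, by 0.40 (limma, adjusted p = 0.0432). The count there was likewise 0 with only those 2 groups in the fit and with either score as a covariate. It was 0 with the repeat control arrays alone or without control replicate 2. It was 1 without control replicate 1 or agomelatine replicate 1, and 6 without agomelatine replicate 2. Calls over all tested genes were not counted in these settings, so no change particular to zinc genes is read from them.

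In the other 7 comparisons 0 of these 24 genes were called in limma, with at most 2 at an unadjusted p under 0.05. The largest difference with stress against control was in Tmem163, a vesicular zinc transporter, at 0.30 (limma, adjusted p = 0.828), and with imipramine against stress in the same gene at -0.26 (limma, adjusted p = 0.466). With fluoxetine it was Slc39a12 (ZIP12), at -0.22 (limma, adjusted p = 0.973), and with tianeptine Mt2A. Mtf1, the zinc sensor of the metallothionein promoters, differed from stress by -0.16 with agomelatine (limma, adjusted p = 0.166). Ap3d1, of the complex that carries Slc30a3 to synaptic vesicles, differed by -0.06, Slc39a12 by -0.35 (limma, adjusted p = 0.263) and Gpr39, a zinc-sensing receptor, by -0.04.

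Markers of cell types moved together with the agomelatine differences. The granule neuron score, the mean centred log2 signal of the 6 tested of 12 listed markers, ran from -0.27 to -0.18 in the agomelatine rats and was no lower than -0.09 in any other rat. Among its genes, C1ql2 fell by 0.55 (limma, adjusted p = 0.000254) and C1ql3 by 0.24 (limma, adjusted p = 0.00569) against stress. Prox1, at -0.24 (limma, adjusted p = 0.0915), Calb1, at -0.19 (limma, adjusted p = 0.147), Synpr, at -0.08, and Slc17a7, at 0.05, were not called. The differences within the list were thus unequal, and that of Slc30a3 (-0.61) lay below those of all 6, a description with no test.

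The oligodendrocyte score ran from 0.43 to 0.79 in the agomelatine rats and up to 0.04 elsewhere, with 9 of 9 tested markers called higher. Of 10 tested markers of CA3 and CA1 pyramidal neurons, 3 rose with agomelatine (Nectin3, Wfs1 and Cpne4) and 0 fell. Choroid plexus markers were high in agomelatine replicate 1 (score 3.31) and stress replicate 1 (0.90). With stress 1 and agomelatine 1 both left out, agomelatine differed from stress by -0.58 in Slc30a3 and -0.40 in Mt1. Astrocyte markers, of cells that make Mt1, were below 0 in 11 of 11 genes with agomelatine against stress, of which 2 fell (Slc4a4 and Aldh1l1), and the score ran from -0.24 to 0.0012 there. With tianeptine, 0 of 11 astrocyte markers were called and the score ran from -0.04 to 0.09. Microglial markers reached a score of 0.52 in 1 tianeptine rat, with 0 of 8 called.

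**Figure D4:**
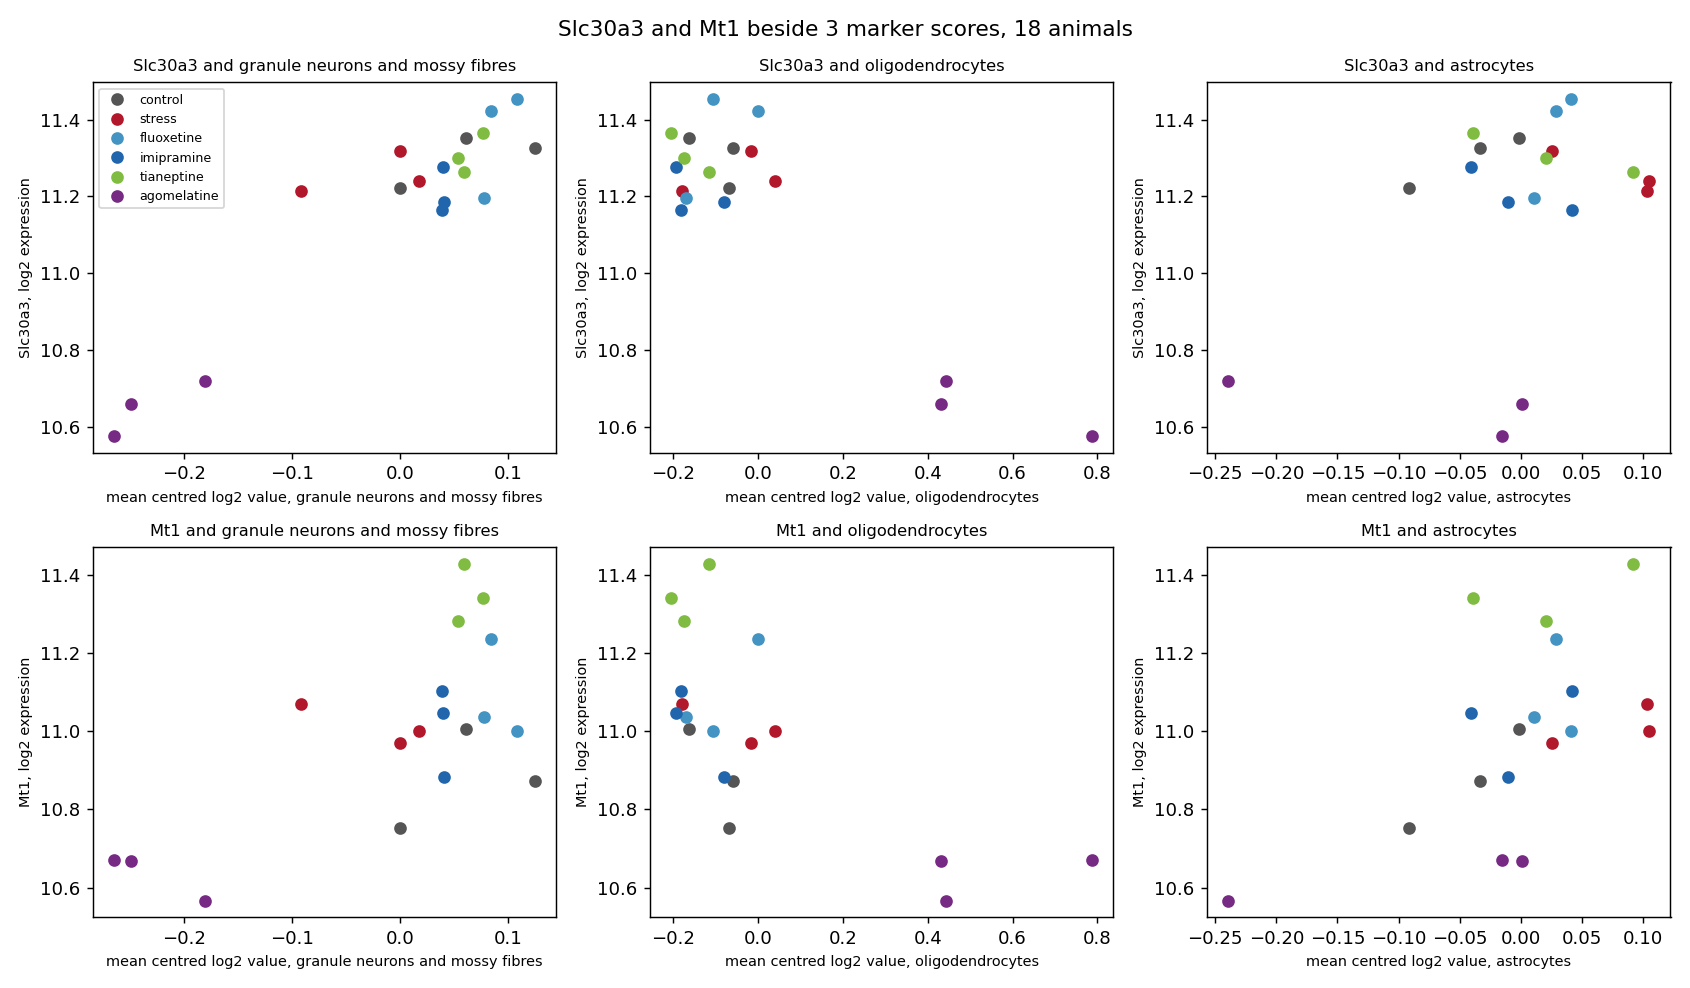
Slc30a3 (top) and Mt1 (bottom) log2 signal against cell type marker scores (mean centred log2 signal of each list) for the 18 rats, coloured by group. The agomelatine rats sit apart on the granule neuron (-0.27 to -0.18) and oligodendrocyte (0.43 to 0.79) axes.

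Within groups, after each group's mean was removed, Slc30a3 correlated most with the meninges score (r = -0.66) and the granule neuron score (r = 0.526), and with the oligodendrocyte score at r = -0.138, over 18 rats and 12 lists. Mt1 correlated most with the scores of oligodendrocyte precursors (r = 0.659), microglia (r = 0.557) and astrocytes (r = 0.503), and its other within-group values ran from -0.105 to 0.176. With the granule neuron score as a covariate, the agomelatine difference from stress was -0.39 for Slc30a3, and with the oligodendrocyte score -0.54, against -0.61 without. Its difference from control was -0.34 with the granule neuron score and -0.58 with the oligodendrocyte score, against -0.65 without. For Mt1, the agomelatine difference from stress was -0.43 with the granule neuron score and -0.38 with the oligodendrocyte score, against -0.38 without. Its difference from control was -0.32 and -0.24 in the same order, against -0.24 without. The part of tissue composition in the differences of Slc30a3, Mt1 and the 3 other zinc genes was not tested beyond these values. Of 14 glucocorticoid-responsive genes, 2 rose and 1 fell with agomelatine and 0 were called with tianeptine, and of 7 tested oxidative stress genes 0 were called with either drug.

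Genes whose values most resembled Slc30a3 over the 18 rats were Zdhhc22 (r = 0.944), Prelid3a (0.941), Pitpnm2 (0.921), the granule neuron marker C1ql2 (0.920) and Plppr2 (0.918). Within groups the same correlations were 0.742, 0.371, 0.685, 0.428 and 0.485. For Mt1 they were Faim2 (r = 0.881), Alg3 (0.881), Dcaf7 (0.872), Pfn1 (0.868) and Porcn (0.863), and within groups 0.636, 0.612, 0.887, 0.749 and 0.638. Between the members, Slc30a3 and Mt1 had r = 0.71 over all rats and 0.132 within groups, so most of their likeness was between groups. Mt1 and Mt2A had r = 0.742, and 0.438 within groups. These correlations describe 18 arrays that fall into groups, and they were picked as the highest of 10804.

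The repeat arrays of the 3 control rats show how far 2 arrays of 1 animal differ, a comparison that played no part in choosing the members. Slc30a3 was at 11.49, 11.42 and 11.32 on the first arrays and at 11.21, 11.24 and 11.12 on the repeats. It was lower on the repeat in 3 of 3 animals, by a mean difference of -0.22 ± 0.05 (SE; limma, adjusted p = 0.00267). Mt1 was at 11.12, 10.94 and 10.80 on the first arrays and at 10.89, 10.80 and 10.70 on the repeats, a difference of -0.16 ± 0.05 (SE; limma, adjusted p = 0.0305), again in 3 of 3 animals. These 2 of the 10 members passed, beside 12.0% of all tested genes, with each gene's spread drawn toward a trend along the mean level. With each gene's spread drawn toward 1 value common to all genes, 0 members passed.

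The shift between arrays of 1 rat bears on comparisons with control. With the first control arrays alone, agomelatine differed from control by -0.76 in Slc30a3 and -0.32 in Mt1, and with the repeat arrays alone by -0.54 and -0.16. Tianeptine differed from control in Mt1 by 0.39 with the first arrays and 0.55 with the repeats. The stress against control difference of Slc30a3 changed sign between them, -0.15 with the first arrays and 0.07 with the repeats. Statements of no overlap with control use the averaged arrays. On the first arrays alone, controls overlapped with tianeptine in Slc30a1 (8.518 to 8.695). They also overlapped with imipramine in Slc30a9 (10.84 to 10.98) and with fluoxetine in Slc30a10 (9.57 to 9.69). On the repeats alone, they overlapped with fluoxetine and imipramine in Slc39a10 (10.62 to 10.67). For Slc30a4, 1 first array, at 10.97, lay above the lowest rat of each drug group. Differences from stress do not use control arrays. Each stressed or drug-treated rat had only 1 array, so a like shift between those arrays could not be measured. In the differences from stress, such a shift cannot be told apart from one between groups.

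**Figure D5:**
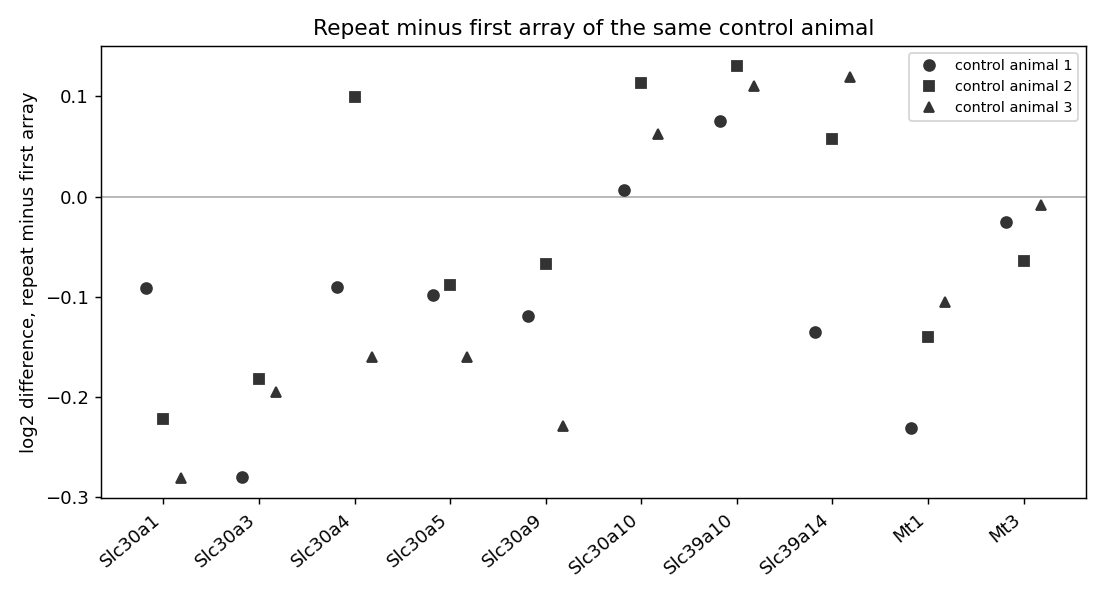
Difference in log2 signal, repeat minus first array, of the 10 members in each of the 3 control rats. Slc30a3 and Mt1 are lower on the repeat array in 3 of 3 rats, by -0.22 and -0.16 on average.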

How the data were processed

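RNA of the dentate gyrus of 18 rats was measured on 21 arrays. Values were deposited as log2 signals. According to the submitters' processing notes, the authors used RMA (Affymetrix Expression Console 1.2). RMA corrects background, normalises arrays to 1 distribution and summarises probes, which shrinks small differences at low signal. Array rounds and genome build are not given in the sources used here.

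Of 29214 probe sets, 15310 had 1 gene symbol in the platform annotation, 323 several and 13581 none, and 15279 of the first matched RefSeq. Each gene was read from its highest-mean probe set, and genes with a mean under the 25th percentile (7.17) of named probe sets were left out. Array medians ran from 7.99 to 8.10. Arrays give no read depth, and the number of rats limits the precision.

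One mean per group was fitted over 18 animals (limma 3.58.1, R 4.3.3, 12 residual degrees of freedom). Each gene's spread was drawn toward a trend along the mean level. The p-values were adjusted by Benjamini-Hochberg over 10804 genes and called under 0.05. Slc30a3 and Mt1 were left out of counts of members called between groups. The repeat arrays were tested on the 3 differences within animals. The fit was tested on simulated data. Named were all 10 members, other zinc genes that were called in a comparison or had its largest difference, Mtf1, Mt2A, Slc39a12, Ap3d1 and Gpr39, and the 5 genes most correlated with Slc30a3 and with Mt1. The members and lists were chosen with earlier results of these data known. Alternatives covered the filter, normalization, control arrays, probe sets, spread, samples, blocks and marker scores.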

Additional observations from a re-analysis of the deposited data

Results flagged for a closer look

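Mt1 was above stress in the tianeptine group and below it in the agomelatine group. The means of these 2 groups were 0.71 apart in log2 signal (tianeptine 11.35 against agomelatine 10.64). All 3 tianeptine rats were above and all 3 agomelatine rats below every stressed rat. The difference between the drugs was not tested, since Mt1 was chosen for its values, and both drug differences use the same 3 stressed rats. The doses, 10 and 40 mg/kg, and the vehicles differed. Groups of 3 are too small for a check of single outlying rats.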

How the results depend on the processing

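No result changed sign where it was called. Counts of calls were taken over the 8 members listed for their function, and were 0 in each of the 9 comparisons under every setting, except that with agomelatine against control they were 0 to 1 with a rat left out (1 without agomelatine 3). For the genes chosen for their values only differences are given: with agomelatine against stress that of Slc30a3 ran from -0.64 to -0.39, and that of Mt1 from -0.43 to -0.34.

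Of the other zinc genes, 3 were called with agomelatine against stress. That became 1 with array weights or without stress 1 and agomelatine 1, 0 with only the 2 groups compared or with either covariate, and 1 to 3 with a rat left out. Against control, 3 became 0 with the repeat control arrays alone, only the 2 groups compared or either covariate, 1 with array weights, the choroid plexus score as a covariate or without stress 1 and agomelatine 1, and 0 to 6 with a rat left out. The cause was not tested, and calls over all genes between groups were counted only in the main setting. The granule neuron covariate, the pair left out and single probe sets were chosen after seeing the data.

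On the repeat arrays, 2 members became 0 with each gene's spread drawn toward 1 common value. They became 0 to 2 with a rat left out (0 without control 1 and 1 without control 2). Over all genes 1295 were called, and 36 with each gene's spread drawn toward 1 common value.

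Replicate numbers did not pair the rats: 10 of 45 same-numbered pairs correlated over 0.1 (median -0.02), and 5 of 18 rats correlated best with their own number. With the replicate number as a block, 0 of the 8 members were called with agomelatine against stress or against control, and 3 and 2 other zinc genes.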
